A study of Mus musculus with 15 samples.

Results

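The 10 genes described here code for receptors, an adaptor and effectors that microglia make around amyloid plaques: Trem2, Tyrobp, Itgax, Clec7a, Axl, Cd84, Cst7, Spp1, Gpnmb and Lpl. They were taken by gene symbol from the 55401 genes counted in the series. All 10 had enough reads to be among the 19536 genes that were tested.

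Microglia are the resident macrophages of the brain. TREM2 is a surface receptor for lipids, lipoproteins and amyloid, and it signals through TYROBP (DAP12), an adaptor that carries an activating motif. Around plaques, microglia are known to lower part of their homeostatic programme and to raise a set of genes for phagocytosis and for the handling of lipids. A part of that switch needs TREM2. ITGAX (CD11c) is an integrin chain, CLEC7A (dectin-1) is a receptor for beta-glucans, CD84 is a receptor of the SLAM family that binds itself, and AXL is a receptor tyrosine kinase of the TAM family that binds apoptotic material through GAS6. CST7 (cystatin F) inhibits lysosomal cysteine proteases. SPP1 (osteopontin) is a secreted matrix protein, GPNMB is a glycoprotein of lysosomes and of the cell surface, and LPL (lipoprotein lipase) hydrolyses triglycerides. In the brain, Axl and Lpl are also made by cells other than microglia, Lpl by hippocampal neurons among them.

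RNA was sequenced from the whole hippocampus of 15 female mice. The study's methods give the age of the mice used as 18 to 20 months, and do not give the age when tissue was taken. Its discussion gives a higher approximate age for the mice in its counts of dendritic spines. The transgenic mice, Tg2576 +/+ in the labels, express human amyloid precursor protein with the Swedish mutation from the prion promoter, which is active in many cells of the brain. Their littermates without the transgene are Tg2576 -/- in the labels and are called WT here. Mice received sesame oil as vehicle or docosahexaenoic acid (DHA, an omega-3 fatty acid) at 450 mg/kg for 5 weeks. This gave 4 WT-Veh, 4 WT-DHA, 4 Tg2576-Veh and 3 Tg2576-DHA mice, each 1 sample. The comparisons ask how the genes differ between genotypes under each treatment, and whether DHA alters them in either genotype. In whole tissue, more cells of a type and more RNA per cell cannot be told apart.

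To show the DNA upstream of the genes that differed between genotypes, the 250 bases before the start site were taken for 5 of the 6 genes that passed the test (Trem2, Itgax, Clec7a, Cd84 and Cst7), from RefSeq on build GRCm38.p6. They were searched on both strands for GAGGAA, the core bound by PU.1 (the macrophage lineage factor), TGANTCA, the AP-1 site, and CACGTG, the E-box. Where RefSeq lists several start sites, the one nearest the start of the counted gene was used. Sequences run 5′ to 3′ on the gene's strand, and capitals mark each match.
Trem2, plus strand, chr17:48346151-48346400: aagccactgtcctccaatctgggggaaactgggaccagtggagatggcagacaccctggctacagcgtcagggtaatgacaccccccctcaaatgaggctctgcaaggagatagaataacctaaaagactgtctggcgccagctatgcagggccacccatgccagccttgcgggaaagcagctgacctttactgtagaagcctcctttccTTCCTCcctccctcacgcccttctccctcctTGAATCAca
Itgax, plus strand, chr7:128129300-128129549: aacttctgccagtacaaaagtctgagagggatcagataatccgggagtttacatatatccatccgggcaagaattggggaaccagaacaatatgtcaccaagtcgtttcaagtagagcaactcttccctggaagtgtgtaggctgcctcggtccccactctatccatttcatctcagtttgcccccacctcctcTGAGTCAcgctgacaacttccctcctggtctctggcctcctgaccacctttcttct
Clec7a, minus strand, chr6:129472780-129473029: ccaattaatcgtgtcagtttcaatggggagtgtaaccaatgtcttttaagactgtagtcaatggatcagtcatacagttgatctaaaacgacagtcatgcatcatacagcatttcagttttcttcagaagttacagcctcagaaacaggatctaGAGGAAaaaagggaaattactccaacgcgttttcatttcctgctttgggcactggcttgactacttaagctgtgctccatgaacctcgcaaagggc
Cd84, plus strand, chr1:171839447-171839696: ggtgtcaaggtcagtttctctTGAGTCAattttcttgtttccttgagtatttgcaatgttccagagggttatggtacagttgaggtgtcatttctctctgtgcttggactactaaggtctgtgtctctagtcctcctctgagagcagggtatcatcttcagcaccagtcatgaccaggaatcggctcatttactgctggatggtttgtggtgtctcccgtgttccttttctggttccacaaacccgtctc
Cst7, plus strand, chr2:150570165-150570414: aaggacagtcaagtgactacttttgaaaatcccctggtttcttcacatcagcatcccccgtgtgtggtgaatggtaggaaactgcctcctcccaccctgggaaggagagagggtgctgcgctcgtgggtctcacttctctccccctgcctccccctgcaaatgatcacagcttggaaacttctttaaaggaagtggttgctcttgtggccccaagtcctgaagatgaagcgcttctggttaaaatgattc

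Upstream windows were found for 8 of the 10 genes, also for Axl, Spp1 and Gpnmb, and none was found for Tyrobp and Lpl. GAGGAA occurred in 4 of the 8 windows (Trem2, Clec7a, Axl and Spp1), and in 23.3% of all 32851 windows of that length. TGANTCA occurred in 3 of the 8 (Trem2, Itgax and Cd84), and in 6.75% of all windows. CACGTG occurred in 0 of the 8, and in 6.02% of all windows. The Trem2 window held both of the first motifs, with TGANTCA starting 9 bases before the start site. The Cst7 and Gpnmb windows held none of the 3 motifs. These matches describe letters, not binding, and genes with and without a match stood on both sides of the test.

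The libraries held between 17372864 and 46596489 assigned reads (median 25645977), and the scaling factors lay between 0.961 and 1.03. App, counted on the mouse gene, lay between 2080 and 2790 CPM (read counts scaled to a common library size) in the 7 Tg2576 mice and between 1570 and 1790 CPM in the 8 WT mice, so that every mouse stood on the side of its label. Camk2a and Slc17a7, made by excitatory neurons, were abundant in every group (means from 3710 to 4590 CPM and from 1540 to 1920 CPM). Choroid plexus transcripts, a tissue that lies against the hippocampus, ranged in sum over 7 genes from 212 to 6870 CPM among mice, and were at 4150 CPM or more in all 3 Tg2576-DHA mice. Their part in the results below was not tested. The samples are separate mice by their labels, and p-values measure the spread between them.

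Set against the summed length of their annotated exons, the levels of the 10 genes spanned a wide range. In WT mice, Tyrobp was the most abundant at 25.9 ± 5.72 CPM per kilobase of exon (SD, n = 8). It was followed by Axl at 10.4 ± 0.524 and Lpl at 6.51 ± 1.46 CPM per kilobase. Trem2 (2.96 ± 0.771) and Spp1 (2.74 ± 1.06) came next and lay within their spread of each other, as did Gpnmb (1.09 ± 0.412) and Cst7 (1.07 ± 0.639). Cd84, Clec7a and Itgax were lowest, at 0.372 ± 0.16, 0.345 ± 0.162 and 0.331 ± 0.194 CPM per kilobase, and did not differ beyond their spread. In Tg2576 mice Cst7 reached 9.85 ± 4.05 CPM per kilobase (SD, n = 7). It thus stood beside Axl at 10.6 ± 1.1, within its spread, and above the means of Trem2 (5.78 ± 2.5) and Lpl (5.59 ± 1.44). This order depends on the exon bases used as divisor (986 for Cst7, 5033 for Axl, 4946 for Trem2 and 10478 for Lpl). Whether the transcripts made are that long was not tested. In CPM, Cst7 (9.71) lay below Axl (53.2), Trem2 (28.6) and Lpl (58.6) in Tg2576 mice. Tyrobp remained the highest at 47.8 ± 14.6 CPM per kilobase, and Cd84, Itgax and Clec7a remained the lowest, between 0.729 and 0.974 CPM per kilobase.

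**Figure D1:**
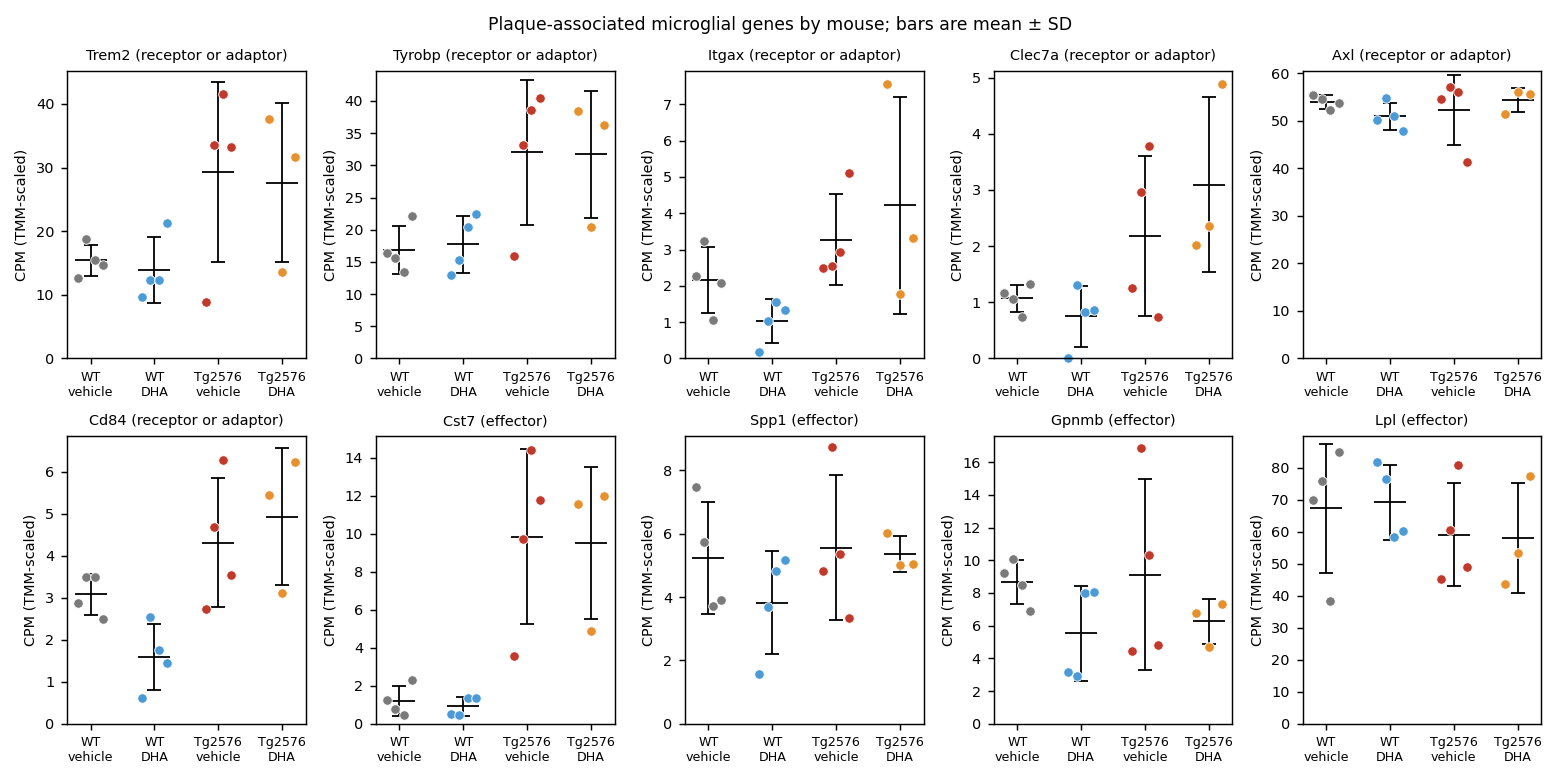
Each panel shows 1 gene, with its level in CPM on the vertical axis (from 0) and the 4 groups on the horizontal axis. Points are mice and bars are the group mean ± SD. Cst7 is the gene in which all 7 Tg2576 mice (3.58 to 14.4 CPM) lie above all 8 WT mice (0.455 to 2.29 CPM), and Axl lies between 47.9 and 57.1 CPM in every mouse but 1.

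Some of the 10 genes passed the test between genotypes and others did not, and the genes were not tested against each other. Averaged over both treatments, 6 of the 10 rose in Tg2576 mice: Cst7 9.26-fold, Clec7a 2.87-fold, Itgax 2.51-fold, Cd84 2.07-fold, Trem2 1.95-fold and Tyrobp 1.85-fold. These were 5 of the 6 genes for receptors and their adaptor, with Axl as the exception, and 1 of the 4 effectors. Axl, Spp1, Gpnmb and Lpl did not pass the test in any comparison. A gene was called at an unadjusted p under 0.01 (edgeR, quasi-likelihood test), the threshold of the study, which 3.85% of all genes tested met in either direction and 1.94% met with a higher level in Tg2576 mice. After Benjamini-Hochberg adjustment over all genes, only Cst7 among the 10 had an adjusted p under 0.05 (edgeR, adjusted p = 0.00457). The median log2 fold change of the 10 genes was 0.92, against -0.004 over all genes tested.

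Trem2 (ENSMUSG00000023992.14) lies on chromosome 17, from 48346401 to 48354147 on the plus strand of GRCm38, and its reads were summed over 4946 bases of exon. It stood at 12.6, 18.7, 15.5 and 14.7 CPM in the WT-Veh mice and at 9.6, 12.4, 12.4 and 21.3 CPM in the WT-DHA mice. The Tg2576-Veh mice stood at 8.86, 33.5, 41.6 and 33.3 CPM, and the Tg2576-DHA mice at 37.6, 13.6 and 31.6 CPM. Thus 5 of the 7 Tg2576 mice lay above every WT mouse, and the other 2, Tg2576-Veh replicate 1 and Tg2576-DHA replicate 2, lay within or below the WT range. The averaged log2 difference was 0.96 ± 0.308 (SE; 95% confidence interval 0.3 to 1.63; edgeR p = 0.0083, adjusted p = 0.247, exact permutation p = 0.0343). It was 0.94 under vehicle and 0.99 under DHA, and neither passed the test alone (edgeR p = 0.0444 and 0.0478, exact permutation p = 0.143 for both). The averaged call was lost when any of 12 of the 15 mice was left out, with p between 0.0101 and 0.0302, and among other settings with limma-voom (log2 difference 0.87) or with no filter on low counts (0.96). Without Tg2576-Veh replicate 1, Trem2 passed within each treatment, at log2 differences of 1.23 (vehicle) and 0.99 (DHA).

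Tyrobp (ENSMUSG00000030579.10, chromosome 7, 30413760 to 30417585, plus strand) is the signalling partner of TREM2. Its levels were 16.3, 15.6, 13.4 and 22.1 CPM in WT-Veh, and 12.9, 15.3, 20.4 and 22.5 CPM in WT-DHA. They were 15.9, 33.1, 38.6 and 40.5 CPM in Tg2576-Veh, and 38.5, 20.4 and 36.2 CPM in Tg2576-DHA. The same 2 Tg2576 mice that were low for Trem2 lay inside the WT range, and the other 5 lay above it. The averaged log2 difference was 0.88 ± 0.205 (SE; 95% confidence interval 0.45 to 1.32; edgeR p = 6.4e-04, adjusted p = 0.0994, exact permutation p = 0.00776), and it held with each of the 15 mice left out. Under vehicle Tyrobp passed the test (log2 difference 0.93, edgeR p = 0.0048, exact permutation p = 0.0857), but not when any 1 of WT-Veh replicates 1, 2 and 3 or Tg2576-Veh replicates 2, 3 and 4 was left out (p from 0.011 to 0.0177) or with no filter on low counts. Under DHA the log2 difference was 0.84 (edgeR p = 0.0137, exact permutation p = 0.143), which passed with DESeq2, with the 2 groups alone, without the robust option and without any 1 of WT-DHA replicate 4, Tg2576-Veh replicate 1 and Tg2576-DHA replicate 2. For Trem2 and Tyrobp, the 7 Tg2576 mice fell into 5 high and 2 low values, so no correlation between the 2 genes is given.

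Itgax (ENSMUSG00000030789.9, chromosome 7, 128129547 to 128150657, plus strand) was scarce, with 4 to 210 reads per mouse. It stood at 2.26, 3.24, 1.05 and 2.08 CPM in WT-Veh, at 0.176, 1.04, 1.55 and 1.34 CPM in WT-DHA, at 2.5, 2.55, 2.92 and 5.12 CPM in Tg2576-Veh, and at 7.56, 1.77 and 3.33 CPM in Tg2576-DHA. The genotypes overlapped under vehicle and did not overlap under DHA. The log2 difference was 2.04 ± 0.553 under DHA (SE; edgeR p = 0.00196, adjusted p = 0.536, exact permutation p = 0.0286) and 0.61 ± 0.496 under vehicle (p = 0.234, exact permutation p = 0.2). The averaged value was 1.33 ± 0.372 (p = 0.00255, adjusted p = 0.167, exact permutation p = 0.00694). Without Tg2576-DHA replicate 1, the mouse at 7.56 CPM, neither the call under DHA nor the averaged call held, at log2 differences of 1.32 and 0.97.

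Clec7a (ENSMUSG00000079293.11, chromosome 6, 129461591 to 129472779, minus strand) was also scarce, with 0 to 126 reads. Its WT-Veh levels were 1.16, 1.06, 0.743 and 1.32 CPM, and its WT-DHA levels 0, 1.3, 0.828 and 0.864 CPM. The 0 was 0 reads in WT-DHA replicate 1, which allows up to 0.128 CPM (3 reads, counting error only). That limit takes reads as independent, which was not tested, and the Clec7a count was even in every mouse. If reads were counted in pairs, the limit is too low. Tg2576-Veh mice stood at 1.25, 2.97, 3.78 and 0.732 CPM and Tg2576-DHA mice at 2.02, 2.36 and 4.88 CPM. Under DHA the genotypes did not overlap, and the log2 difference was 2.01 ± 0.671 (SE; edgeR p = 0.00858, adjusted p = 0.56, exact permutation p = 0.0571). Leaving out any of 9 mice ended that call (p from 0.0104 to 0.055), as did no filter on low counts and a fit of the 2 groups alone. Under vehicle the value was 1.03 ± 0.615 (p = 0.115, exact permutation p = 0.286). The averaged value of 1.52 ± 0.455 passed (p = 0.00426, adjusted p = 0.192, exact permutation p = 0.0151). That call was lost with no filter on low counts and without Tg2576-Veh replicate 3 or Tg2576-DHA replicate 3 (unadjusted p from 0.0116 to 0.0175 over these settings).

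Cd84 (ENSMUSG00000038147.13, chromosome 1, 171839697 to 171890718, plus strand) had 14 to 161 reads per mouse. It stood at 2.86, 3.48, 3.48 and 2.5 CPM in WT-Veh and at 0.616, 2.53, 1.76 and 1.44 CPM in WT-DHA. Tg2576-Veh mice had 2.72, 4.69, 6.27 and 3.54 CPM, and Tg2576-DHA mice 5.43, 3.1 and 6.23 CPM. All 3 Tg2576-DHA mice lay above all 4 WT-DHA mice, while the groups under vehicle overlapped. The log2 difference was 1.61 ± 0.366 under DHA (SE; 95% confidence interval 0.84 to 2.39; edgeR p = 3.7e-04, adjusted p = 0.378, exact permutation p = 0.0571) and 0.49 ± 0.333 under vehicle (p = 0.158, exact permutation p = 0.2). The averaged value was 1.05 ± 0.248 (p = 5.2e-04, adjusted p = 0.0957, exact permutation p = 0.00776). The call under DHA and the averaged call both held with each of the 15 mice left out.

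Axl (ENSMUSG00000002602.16, chromosome 7, 25757273 to 25788705, minus strand) was the most even of the 10 genes. It stood at 55.5, 54.6, 52.2 and 53.7 CPM in WT-Veh, at 50.2, 54.8, 51.1 and 47.9 CPM in WT-DHA, at 54.7, 57.1, 56.1 and 41.4 CPM in Tg2576-Veh, and at 51.5, 56.1 and 55.7 CPM in Tg2576-DHA. All groups overlapped. The averaged log2 difference was 0.02 ± 0.0688 (SE; edgeR p = 0.73, exact permutation p = 0.821), with a 95% confidence interval from -0.12 to 0.17. The sign of the difference under vehicle (-0.05) turned without Tg2576-Veh replicate 4, the mouse at 41.4 CPM (0.07).

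Cst7 (ENSMUSG00000068129.5, chromosome 2, 150570415 to 150578944, plus strand, 986 bases of exon) differed most. It stood at 1.25, 0.774, 0.473 and 2.29 CPM in WT-Veh and at 0.528, 0.455, 1.34 and 1.34 CPM in WT-DHA. It stood at 3.58, 9.73, 14.4 and 11.8 CPM in Tg2576-Veh, and at 11.6, 4.91 and 12 CPM in Tg2576-DHA. The lowest Tg2576 mouse lay above the highest WT mouse. The log2 difference was 3.02 ± 0.522 under vehicle (SE; edgeR p = 3.9e-05, adjusted p = 0.0766, exact permutation p = 0.0286). With DHA it was 3.4 ± 0.569 (edgeR p = 2.7e-05, adjusted p = 0.13, exact permutation p = 0.0286). The averaged log2 difference was 3.21 ± 0.386 (95% confidence interval 2.39 to 4.03; p = 5.9e-07, adjusted p = 0.00457, exact permutation p = 4.1e-04), and the permutation p is the smallest this design can give. All 3 calls held with each of the 15 mice left out. The 2 Tg2576 mice that were low for Trem2 and Tyrobp were also the lowest Tg2576 mice for Cst7, at 3.58 and 4.91 CPM.

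Spp1 (ENSMUSG00000029304.14, chromosome 5, 104435118 to 104441050, plus strand) shares 309 of its 1648 exonic bases (18.75%) with the predicted gene Gm42793 on the same strand, and how reads in that stretch were assigned is uncertain. It stood at 7.49, 5.75, 3.72 and 3.91 CPM in WT-Veh, 1.58, 3.7, 4.81 and 5.18 CPM in WT-DHA, 4.82, 8.73, 5.37 and 3.33 CPM in Tg2576-Veh, and 6.01, 5.02 and 5.03 CPM in Tg2576-DHA. The groups overlapped, and the averaged log2 difference was 0.29 ± 0.244 (SE; 95% confidence interval -0.22 to 0.81; edgeR p = 0.246, exact permutation p = 0.293).

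Gpnmb (ENSMUSG00000029816.10, chromosome 6, 49036546 to 49070929, plus strand) stood at 9.22, 10.1, 8.48 and 6.92 CPM in WT-Veh and at 3.17, 2.89, 7.97 and 8.06 CPM in WT-DHA. In Tg2576-Veh it stood at 4.43, 16.9, 10.3 and 4.84 CPM, and in Tg2576-DHA at 6.8, 4.7 and 7.32 CPM. Tg2576-Veh replicate 2 was the highest of all mice, while 4 of the 7 Tg2576 mice lay below every WT-Veh mouse. The lowest values of all, 2.89 and 3.17 CPM, were those of WT-DHA mice. The averaged log2 difference was 0.14 ± 0.304 (SE; 95% confidence interval -0.51 to 0.79; edgeR p = 0.655, exact permutation p = 0.789), and it turned to -0.11 without Tg2576-Veh replicate 2.

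Lpl (ENSMUSG00000015568.16, chromosome 8, 68880491 to 68907448, plus strand) stood at 70, 75.8, 38.4 and 84.8 CPM in WT-Veh, at 81.7, 76.6, 58.3 and 60.2 CPM in WT-DHA, at 45.2, 60.5, 81 and 49.1 CPM in Tg2576-Veh, and at 43.8, 53.3 and 77.3 CPM in Tg2576-DHA. It was the only member with a lower averaged value in Tg2576 mice, but the groups overlapped and the log2 difference of -0.22 ± 0.182 did not pass (SE; 95% confidence interval -0.61 to 0.17; edgeR p = 0.243, exact permutation p = 0.269).

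**Figure D2:**
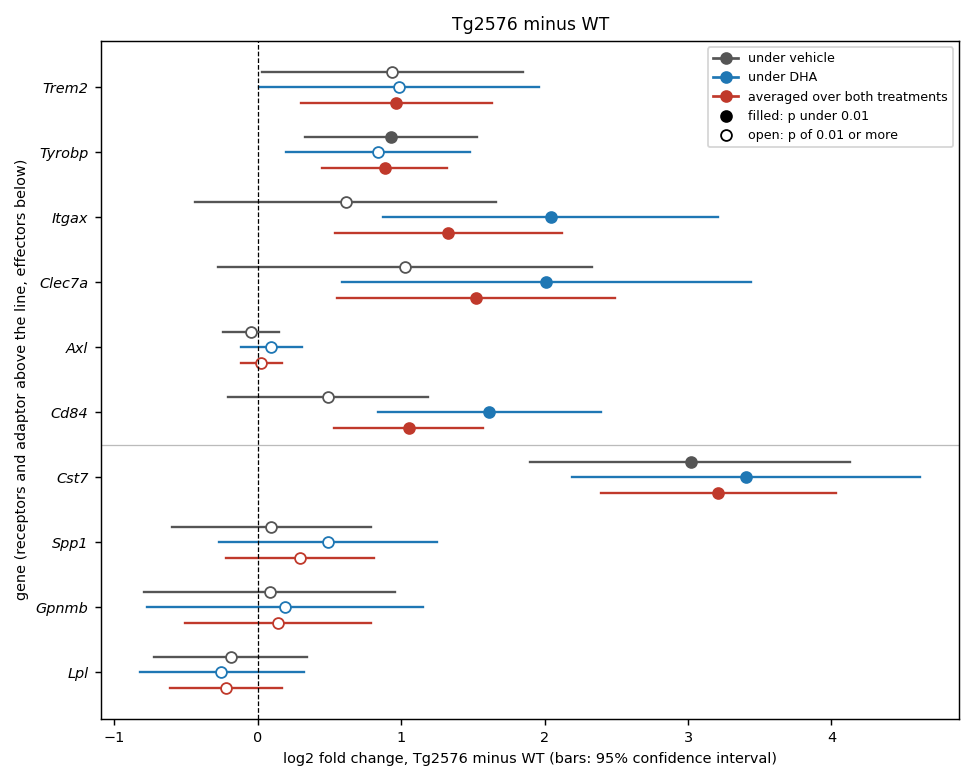
The horizontal axis gives the log2 fold change of Tg2576 minus WT mice, with 95% confidence intervals as bars, for each gene under vehicle, under DHA and averaged over both; filled points have p under 0.01. Cst7 lies farthest from 0 (3.21 averaged), 5 of the receptor and adaptor genes lie between 0.88 and 1.52 averaged, and Axl, Spp1, Gpnmb and Lpl have intervals that include 0.

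Under vehicle alone, 2 of the 10 genes passed, Cst7 and Tyrobp, both higher in Tg2576 mice. Of all genes, 3.09% passed under vehicle and 1.16% passed with a higher level in Tg2576 mice. Under DHA 4 of the 10 passed (Cst7, Cd84, Itgax and Clec7a), all higher in Tg2576 mice, against 1.75% of all genes and 1.06% in that direction. Cst7 was the only member in which every Tg2576-Veh mouse lay above every WT-Veh mouse, a pattern found in 2.18% of all genes. Under DHA this held for the 4 called members and for 3.91% of all genes. For all 7 Tg2576 against all 8 WT mice it held for Cst7 and for 0.189% of all genes. That Itgax, Clec7a and Cd84 passed under DHA and not under vehicle does not show a difference between treatments, for which the interaction below is the test.

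Single mice were high or low for many of the genes. Tg2576-Veh replicates 2 and 3 were among the 3 highest of the 15 mice for 5 and 8 of the 10 genes. Tg2576-Veh replicate 1 was the lowest of all mice for Trem2, although its App level (2620 CPM) was the second highest. Tg2576-DHA replicate 2 had 13.6 CPM of Trem2 and 2550 CPM of App. WT-DHA replicate 1 was among the 3 lowest mice for 9 of the 10 genes and the lowest for 5 of them, with Lpl as the exception at 81.7 CPM. Its library held 23430325 reads, close to the median. It also had the lowest summed level of the choroid plexus genes (212 CPM) and of the astrocyte genes (1370 CPM). From the lowest, it ranked 2 of 15 for the sums of 14 microglial identity genes (231 CPM) and 14 homeostatic microglial genes (350 CPM). Its sum of the excitatory neuron genes was the highest (7910 CPM). The part of all these in its low values was not tested. Without this mouse, 2 genes were called under vehicle, 4 under DHA and 5 averaged over both treatments, Trem2 being the one lost, at a log2 difference of 0.9.

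**Figure D3:**
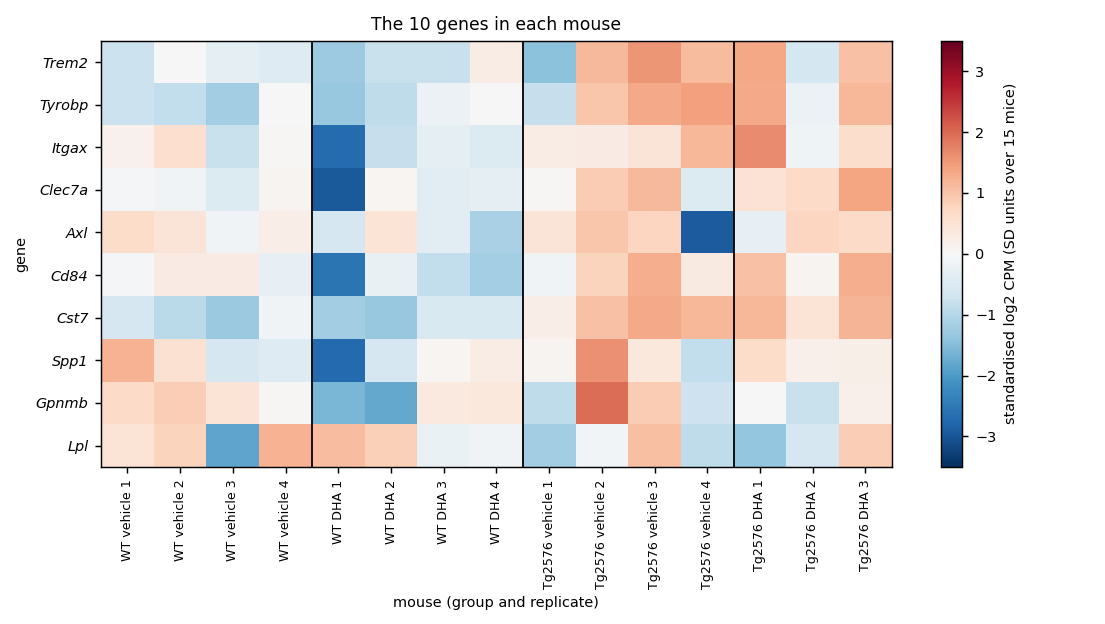
Rows are genes and columns are mice in order of group and replicate; colour gives log2 CPM standardised over the 15 mice, in SD units. Blue in 9 of the 10 rows marks WT-DHA replicate 1, and red in most of the upper rows marks Tg2576-Veh replicates 2 and 3 and Tg2576-DHA replicates 1 and 3. Tg2576-Veh replicate 4 is red for Trem2, Tyrobp, Itgax and Cst7 and most strongly blue for Axl. It also lies below the mean for Clec7a, Spp1, Gpnmb and Lpl.

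Other genes of the same programme were also higher in Tg2576 mice. Averaged over both treatments, 3.85% of all genes tested passed, and 1.94% passed with a higher level in Tg2576 mice. These shares stand beside each averaged count in the lists below. The lists were chosen with earlier results of these data known, so their counts are a description. Of 34 further plaque-associated microglial genes, 15 rose and 0 fell averaged over both treatments, with a median log2 difference of 0.41. The 5 with the lowest p included Cd68, a lysosomal membrane protein of phagocytes, at 9.68 ± 0.389 CPM in WT-Veh, 7.87 ± 1.23 in WT-DHA, 17.4 ± 5.07 in Tg2576-Veh and 17.3 ± 4.16 in Tg2576-DHA (log2 difference 0.99, edgeR adjusted p = 0.00884). Lilrb4a, an inhibitory receptor, rose 2.8-fold (adjusted p = 0.0487), and Ctss, the lysosomal protease cathepsin S, rose 1.58-fold (adjusted p = 0.0492). Cd52 rose 2.22-fold, and Lyz2, a lysozyme of macrophages, 1.86-fold, both with adjusted p over 0.05 (0.0517 and 0.0541). Of 24 genes for signalling partners, ligands and processing enzymes of these receptors and effectors, 22 could be tested, 4 rose and 0 fell, with a median of 0.17. They were Pros1, which codes for protein S, a ligand of TAM receptors (1.35-fold), Itgb2, the integrin chain that pairs with ITGAX (1.39-fold), Inpp5d, the phosphatase SHIP1 (1.28-fold), and Pik3cg, a subunit of PI3 kinase (1.38-fold), with adjusted p between 0.0821 and 0.246. Pik3ap1 was next, at a log2 difference of 0.42 (adjusted p = 0.329).

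Markers of microglia as such rose with genotype as well. Of 14 microglial identity genes, all 14 had higher values in Tg2576 mice, 10 rose and 0 fell, with a median log2 difference of 0.58. Ptprc (CD45) rose 1.83-fold, Spi1, which codes for PU.1, 1.62-fold, Laptm5 1.5-fold, Irf8 1.53-fold and Cd53 1.62-fold. Their summed level ranged from 223 to 342 CPM in WT and from 298 to 508 CPM in Tg2576 mice. Of 14 homeostatic microglial genes, 4 rose and 0 fell averaged over both treatments, with a median of 0.28. Among the 4 were Gpr34 (1.94-fold), Csf1r (1.22-fold) and Cx3cr1 (1.25-fold). Tgfbr1, at an averaged log2 difference of 0.27, did not pass in that comparison (adjusted p = 0.283). Under vehicle 0 of the 14 passed, with 3 at lower values in Tg2576 mice and a median of 0.13. Under DHA 6 rose, with a median of 0.44. Of all genes, 1.16% under vehicle and 1.06% under DHA passed with a higher level in Tg2576 mice. Passing under 1 treatment alone does not show a difference between treatments.

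Each gene was also set against the mean log2 CPM of the 14 identity genes in the same mouse. On this scale the difference of Tg2576 minus WT was 2.65 for Cst7, with no overlap between the genotypes. It was 1.08 for Clec7a, 0.81 for Itgax, 0.54 for Cd84, 0.32 for Tyrobp and 0.31 for Trem2, all with overlap. It was -0.18 for Spp1, -0.42 for Gpnmb, -0.5 for Axl and -0.74 for Lpl, also with overlap. WT-DHA replicate 1, with 0 reads of Clec7a and 4 of Itgax, stood at -6.94 and -5.18 on this scale. The WT-DHA means were -4.27 and -3.55. Values so near 0 reads rest on the prior count added before taking log2, and this mouse widens the differences of both genes. The differences of all 10 genes depend on the reference. Set against the 14 homeostatic genes instead, Cst7 was at 2.92, again with no overlap, Clec7a at 1.35, Itgax at 1.08, Cd84 at 0.81, Tyrobp at 0.6 and Trem2 at 0.58, while Spp1 turned to 0.09 and Gpnmb, Axl and Lpl were at -0.15, -0.22 and -0.46. When the identity mean entered the fit as a covariate, Cst7 alone was called in the averaged comparison, at a log2 difference of 1.81 (edgeR adjusted p = 0.232), and 1 gene was called under each treatment. The other 5 calls were lost, with Tyrobp at 0.01 (adjusted p = 0.989), Cd84 at 0.3 (adjusted p = 0.789), Clec7a at 0.6 (adjusted p = 0.772), Itgax at 0.64 (adjusted p = 0.726) and Trem2 at -0.32 (adjusted p = 0.741). The identity genes themselves differ by genotype, so this fit also takes away genotype difference that they share.

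**Figure D4:**
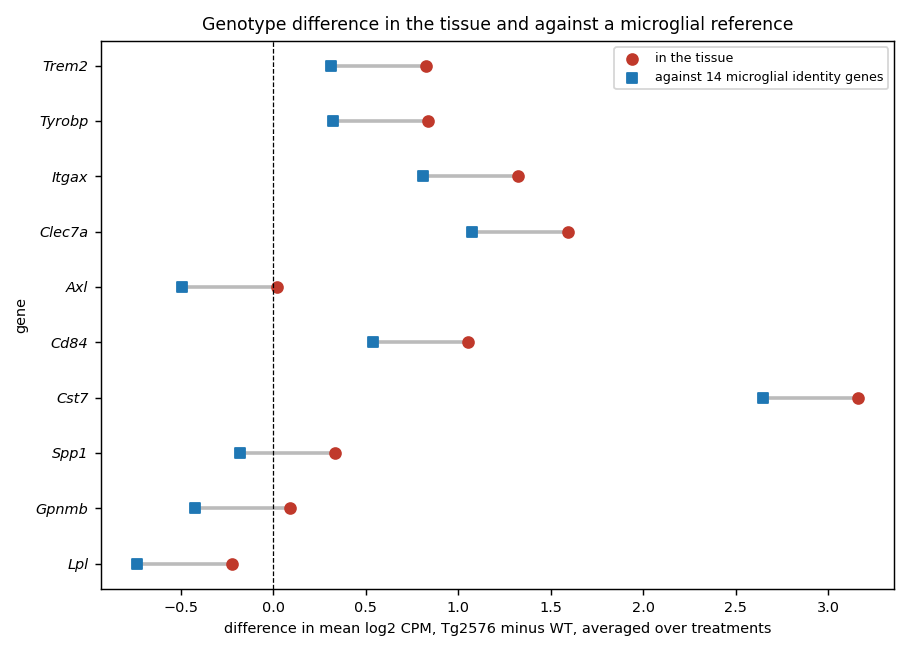
The horizontal axis gives the difference in mean log2 CPM of Tg2576 minus WT, averaged over treatments; circles are values in the tissue and squares are values set against 14 microglial identity genes. Every square lies to the left of its circle by the same amount, and Cst7 stays at 2.65 while Axl, Spp1, Gpnmb and Lpl lie below 0 with this reference.

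Markers of other cells that could hold these transcripts were measured too. Of 7 genes of perivascular macrophages, 0 passed averaged over both treatments although all 7 had higher values (median 0.77), and their sum was 3.65 to 6.53 CPM in WT and 3.9 to 14 CPM in Tg2576 mice. The most abundant, Cd163 and F13a1, had log2 differences of 0.26 (adjusted p = 0.785) and 0.83 (adjusted p = 0.329). Of 7 genes of infiltrating myeloid cells, 4 could be tested and 2 passed with a higher averaged value in Tg2576 mice. Ly6c2, of inflammatory monocytes, passed at 2.21-fold averaged, but its direction differed between treatments. Its level was 0.327 ± 0.0694 CPM in WT-Veh and 2.12 ± 1.21 CPM in Tg2576-Veh, a log2 difference of 2.67. It was 1.83 ± 0.482 CPM in WT-DHA and 1.41 ± 0.69 CPM in Tg2576-DHA, a log2 difference of -0.38 that did not pass. Its interaction, defined below, was -3.05 and passed (edgeR adjusted p = 0.845), as did that of 0.829% of all genes. The values under vehicle and under DHA had opposite signs, so the averaged value describes neither, and the level in WT-Veh was low. Flt3 had an averaged log2 difference of -0.16 (adjusted p = 0.642). Of 7 genes of T and NK cells, 2 could be tested and 0 passed, with log2 differences of 1.26 for Trbc2 (adjusted p = 0.332) and 0.8 for Cd8a (adjusted p = 0.521) and group means of at most 1.13 and 0.403 CPM. Of 9 genes of leptomeningeal fibroblasts, 0 passed, with all 9 higher (median 0.6). Their most abundant genes, Dcn and Slc6a13, had log2 differences of 0.59 (adjusted p = 0.616) and 0.6 (adjusted p = 0.547). Among 7 choroid plexus genes 0 passed, with Ttr and Enpp2 at 0.41 and 0.6. Their part in the results was not tested.

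Among the remaining cell types, 3 of 7 astrocyte genes rose, with Gfap, the filament of reactive astrocytes, at 2.02-fold (adjusted p = 0.00457) and Slc1a3 at -0.03 (adjusted p = 0.929). Of 6 endothelial genes 1 rose, with Flt1 at -0.2 and Cldn5 at 0.08, neither of which passed. Of 6 genes of oligodendrocytes and their precursors 0 passed, with Mbp at -0.07. Of 6 genes of excitatory neurons, 3 fell, and of the 2 most abundant Camk2a fell by 0.24 on the log2 scale (adjusted p = 0.212) while Slc17a7 was at -0.17 (adjusted p = 0.371).

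DHA was next compared with vehicle within each genotype. In WT mice 0 of the 10 genes passed (edgeR), against 1.38% of all genes, and 1 was under an unadjusted p of 0.05. DESeq2 called 1 and limma-voom 0. Cd84 was that gene, lower with DHA by a log2 value of -0.94 ± 0.347 (SE; 95% confidence interval -1.67 to -0.21; p = 0.015, adjusted p = 0.749, exact permutation p = 0.0571). The groups overlapped by a single pair of mice, at 2.53 CPM in WT-DHA and 2.5 CPM in WT-Veh. Cd84 passed with DESeq2 (-0.93) and without WT-DHA replicate 2 (-1.28). Itgax had a value of -1.07 ± 0.528 (p = 0.0601, exact permutation p = 0.0857) and Gpnmb of -0.66 ± 0.416 (p = 0.133, exact permutation p = 0.143). In all, 8 of the 10 genes had lower values with DHA in WT mice, with a median of -0.45 against -0.013 over all genes. WT-DHA replicate 1 was the lowest of all mice for 5 of the 10 genes. Beside these values, Ly6c2 rose 5.58-fold with DHA in WT mice (adjusted p = 0.259), while 0 of the 14 identity genes passed.

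In Tg2576 mice, 0 of the 10 genes passed for DHA against vehicle (edgeR, DESeq2 and limma-voom), and 0 were under an unadjusted p of 0.05, while 0.353% of all genes passed. Trem2 had a log2 difference of -0.09 (95% confidence interval -1.06 to 0.88), Tyrobp of -0.02 (-0.66 to 0.62) and Cst7 of -0.06 (-1.14 to 1.02). Intervals this wide do not show the genes to be alike under both treatments. Axl was bounded more tightly, at 0.06 (-0.16 to 0.27). Itgax (0.36), Clec7a (0.48) and Cd84 (0.19) had positive values, none of which passed. Gpnmb had the lowest at -0.55 (p = 0.237, exact permutation p = 0.629), and it was nearer 0 without Tg2576-Veh replicate 2, at -0.06. The median of the 10 genes was -0.021.

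**Figure D5:**
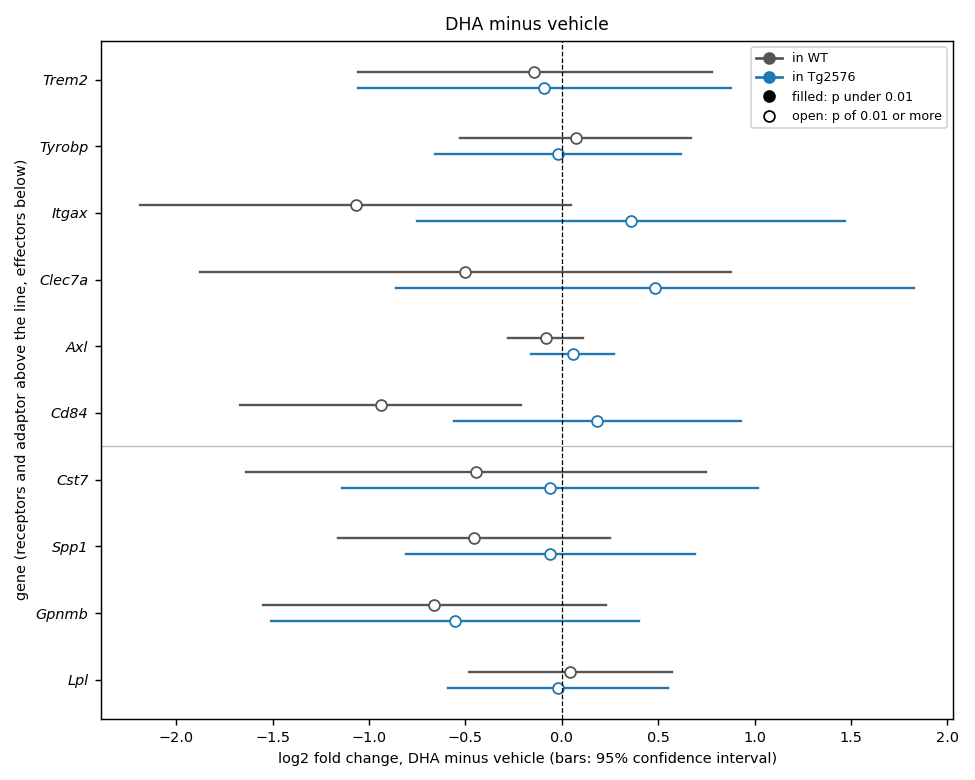
The horizontal axis gives the log2 fold change of DHA minus vehicle, with 95% confidence intervals as bars, for each gene in WT and in Tg2576 mice; all points are open because p was 0.01 or more. In WT mice Cd84 is the gene whose interval (-1.67 to -0.21) leaves out 0, and in Tg2576 mice every interval includes 0.

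The interaction, the DHA difference in Tg2576 minus that in WT mice, tests whether the genotypes respond differently. No member passed (0 of 10 with edgeR, DESeq2 and limma-voom), against 0.829% of all genes, and 1 was under an unadjusted p of 0.05. That was Cd84, with a log2 value of 1.12 ± 0.495 (SE; 95% confidence interval 0.08 to 2.16; edgeR adjusted p = 0.845), which passed without WT-DHA replicate 2, at 1.47. Itgax had 1.43 ± 0.741 (adjusted p = 0.845) and Clec7a 0.99 ± 0.908 (adjusted p = 0.854). Trem2 (0.05), Tyrobp (-0.09) and Lpl (-0.06) were near 0, with intervals of -1.29 to 1.38, -0.97 to 0.78 and -0.84 to 0.71.

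Among the 6 genes outside the 10 whose log2 CPM over the 15 mice was most like the mean of the 10 standardised genes, out of 19526 compared, were Ly9 (Pearson r = 0.939), Lyz2 (0.921), Ptprc (0.91), Csf1r (0.889) and Slc15a3 (0.881). The mice share genotype, group and the make-up of the tissue, so these values are a description. Ly9, a SLAM family receptor like CD84, stood at 0.599 ± 0.198 CPM in WT-Veh, 0.436 ± 0.177 in WT-DHA, 1.23 ± 0.759 in Tg2576-Veh and 1.37 ± 0.735 in Tg2576-DHA (2.56-fold averaged, edgeR adjusted p = 0.125). Slc15a3, a lysosomal peptide transporter, stood at 2.73 ± 0.45, 2.02 ± 0.409, 4.36 ± 1.14 and 4.83 ± 1.87 CPM in the same groups (1.96-fold, adjusted p = 0.0492).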

How the data were processed

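Hippocampal RNA from 15 mice was sequenced. The authors deposited raw read counts per gene, 1 file per mouse, made with STAR 2.6.1c and featureCounts 1.6.0 on GRCm38 according to the submitters' processing notes, with GENCODE annotation and no strand option per the file headers. The labels and the study's methods name different library kits, with 1.3 and 1 µg of RNA. From these counts, CPM on TMM-scaled library sizes (log2 with a prior count of 2) and edgeR 4.0.16 quasi-likelihood tests (robust, filterByExpr with a minimum count of 10, R 4.3.3) were computed over all 15 mice with 1 mean per group. The threshold for a call was 0.01 on the unadjusted p, and Benjamini-Hochberg adjusted p-values over all 19536 genes are given. Exact permutation tests on log2 CPM were two-sided, and the smallest p for 1 treatment is 0.0286. The common biological coefficient of variation was 20.1%. On simulated counts with log2 changes of 1, 78.8% of 198 changed genes were called under vehicle and 87.4% averaged over treatments (19167 genes). The changed genes were drawn at random from all genes tested, so these shares need not hold for the members. Only genotype was changed, so they do not cover the DHA comparisons or the interaction. Alternatives were DESeq2 1.42.0, limma 3.58.1 (voom), other filters and scaling, a replicate block, the microglial identity covariate and each mouse left out. Named genes of a list are those with the lowest averaged genotype p, or the most abundant for other cell types. The members and lists were chosen with earlier results of these data known. Values of some genes of these lists are not reported here.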

Additional observations from a re-analysis of the deposited data

Results flagged for a closer look

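Among 30 groups of 4 mice (each gene in the groups WT-Veh, WT-DHA and Tg2576-Veh), 2 held a mouse far from the other 3, and chance alone marks about 1 in 20 groups. Both were Tg2576-Veh replicate 4. It had the highest Itgax level of its group, 5.12 CPM, with a gap to the next mouse of 0.838 of the group's range. It had the lowest Axl level, 41.4 CPM, with a gap of 0.845 of the range.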

How the results depend on the processing

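The lowest counts in a mouse were 4 for Itgax, 0 for Clec7a, 14 for Cd84 and 12 for Cst7. The number of members called under vehicle (2) was 1 with no filter on low counts and 1 with the identity covariate. Under DHA (4) it was 2 with at least 10 counts in every mouse, where fewer members could be tested, 1 with the covariate, 3 with no filter and 5 with DESeq2 or without the robust option. Averaged (6), it was 1 with the covariate, 5 with limma-voom, and 4 with no filter, with at least 10 counts in every mouse and with the replicate block. The block ended the averaged calls of Trem2 (1.01) and Clec7a (1.4) and the call of Clec7a under DHA (2.03), and Tyrobp passed under DHA with it (0.99). For DHA in WT mice (0) it was 1 with DESeq2, with no filter, with the replicate block and with the covariate. Apart from the limits of each setting's own construction, the cause was not tested. Values that changed sign with the covariate were Trem2 for genotype under vehicle (-0.37), Trem2 for genotype under DHA (-0.263), Trem2 for averaged genotype (-0.316), Trem2 for DHA in Tg2576 (0.0381), Tyrobp for genotype under DHA (-0.0318), Tyrobp for DHA in Tg2576 (0.0558), Itgax for genotype under vehicle (-0.0821), Axl for genotype under vehicle (0.00147), Cd84 for genotype under vehicle (-0.259), Cst7 for DHA in Tg2576 (0.0781), Gpnmb for genotype under vehicle (-0.554), Gpnmb for genotype under DHA (-0.405), Gpnmb for averaged genotype (-0.48) and Lpl for DHA in Tg2576 (0.000998). With the replicate block they were Trem2 for DHA in Tg2576 (0.112), Tyrobp for DHA in Tg2576 (0.14), Tyrobp for interaction (0.0872), Axl for averaged genotype (-0.0032), Cst7 for DHA in Tg2576 (0.141) and Gpnmb for genotype under vehicle (-0.000358), and with limma-voom Gpnmb for genotype under vehicle (-0.0317). Same-numbered mice did not deviate together (21 pairs, r from -0.244 to 0.213; 5 of 15 mice closest to their own number), so the numbers were not used as pairs. With each mouse left out, members called ranged from 1 to 3 under vehicle, from 3 to 6 under DHA and from 4 to 6 averaged. They ranged from 0 to 1 for DHA in WT and from 0 to 1 for the interaction. Log2 values that changed sign ranged as follows. For DHA in WT, Trem2 from -0.423 to 0.00882, Tyrobp from -0.0619 to 0.231, Cst7 from -0.707 to 0.0607 and Lpl from -0.15 to 0.174. For DHA in Tg2576, Trem2 from -0.39 to 0.237, Tyrobp from -0.24 to 0.223, Itgax from -0.361 to 0.736, Clec7a from -0.00345 to 0.876, Axl from -0.0462 to 0.103, Cd84 from -0.0198 to 0.436, Cst7 from -0.331 to 0.26, Spp1 from -0.25 to 0.25 and Lpl from -0.28 to 0.169. For interaction, Trem2 from -0.249 to 0.366, Tyrobp from -0.311 to 0.139, Cst7 from -0.12 to 0.693, Gpnmb from -0.116 to 0.598 and Lpl from -0.32 to 0.129. For genotype under vehicle, Axl from -0.0909 to 0.0692, Spp1 from -0.215 to 0.33 and Gpnmb from -0.405 to 0.316. For genotype under DHA, Gpnmb from -0.027 to 0.437. For averaged genotype, Gpnmb from -0.106 to 0.261. Over all genes, calls for DHA in Tg2576 mice (69) were 126 with DESeq2, 126 with no filter and 29 with the 2 groups alone. For DHA in WT (270) they were 431 with the 2 groups alone, for genotype under DHA (342) 577 with the covariate, and for the interaction (162) 247 with DESeq2 and 289 with no filter. At an adjusted p under 0.05, the averaged genotype gave 40 with edgeR, 380 with DESeq2, 10 with limma-voom, 74 with no filter, 60 without TMM factors, 19 with the block, 17 without the robust option and 0 with the covariate, with which 608 had an unadjusted p under 0.01. Without TMM factors, the split of higher and lower calls moved from 379 and 374 to 540 and 206 averaged, from 226 and 378 to 303 and 269 under vehicle, and from 208 and 134 to 271 and 72 under DHA.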
